A study of Mus musculus with 49 samples.

Results

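A set of 9 genes that mark megakaryocytes and platelets was followed through 49 RNA-seq libraries: Pf4, Ppbp, Itga2b, Gp1ba, Gp9, Gp5, Treml1, Clec1b and Thbs1. They were taken from the count table by name, as 9 of its 55487 genes, by a rule that names genes and holds no measured value, although earlier results of these data were known when the set was put together. The libraries came from 6 HuHER2 transgenic mice that had developed mammary tumors and were palpated from the age of 7 months, so that every group carried the same transgene and a tumor. A single intravenous injection of BP, an iron oxide nanoparticle known here only by that code, at 5 mg Fe per mouse, was given to 3 mice, and PBS to the other 3. The series' design text gives 7 days between injection and collection, whereas a treatment protocol label gives 31 days. Bulk bone marrow, spleen, lung, liver, lymph node and tumor were sequenced from each mouse (36 libraries). From the BP mice, a piece of each organ except lung was dissociated and its iron-laden cells were held back on a magnet. Of this nanoparticle-associated fraction there are 3 libraries each for marrow, spleen, liver and tumor and 1 for lymph node. Lungs were left out of the sorting because the submitters detected no nanoparticles there. None of the libraries used here came from PBS tissue passed over a magnet, so that digestion, sorting and nanoparticle content cannot be told apart in comparisons with bulk tissue.

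Megakaryocytes are large polyploid cells of the marrow, and in mice also of the spleen, that shed platelets into the blood. Platelets have no nucleus and carry RNA handed over by the megakaryocyte, so that transcripts of these genes in an organ can come from megakaryocytes, from platelets in its blood, or from other cell types that use the same gene. Pf4 (platelet factor 4, CXCL4) and Ppbp (pro-platelet basic protein, CXCL7) encode chemokines stored in alpha granules. Itga2b encodes the alpha IIb subunit (CD41) of the fibrinogen receptor. Gp1ba, Gp9 and Gp5 encode subunits of the GPIb-IX-V receptor for von Willebrand factor. Treml1 encodes TLT-1, a receptor held in alpha granules, and Clec1b encodes CLEC-2, the receptor for podoplanin. Thbs1 encodes thrombospondin 1, an alpha granule and matrix protein that is also made by many cells outside the platelet lineage.

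Pf4 and Ppbp were neighbours on chromosome 5 of the mouse genome (GRCm38), Ppbp at 90768518 to 90770063 and Pf4 at 90772435 to 90773383, both on the plus strand. Itga2b lay on chromosome 11 (102453297 to 102470122, minus strand), as did Gp1ba (70639122 to 70642036, plus). Gp9 (87778072 to 87779768, plus) and Clec1b (129397297 to 129409335, plus) lay on chromosome 6. Gp5 was on chromosome 16 (30307685 to 30310779, minus), Treml1 on chromosome 17 (48359916 to 48367176, plus) and Thbs1 on chromosome 2 (118111876 to 118127133, plus). Clec1b shared 184 exon bases with Clec9a on the same strand, and Thbs1 shared 208 with the antisense gene Gm29233, so that reads from these stretches have uncertain assignment.

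Promoter sequence from RefSeq (GRCm38.p6) was found for 8 of the 9 genes, all but Thbs1. Words of 2 families of factors with known roles in megakaryocytes were searched as fixed letters on both strands of the 250 bases before each start: the GATA words AGATAA and TGATAA, and the ETS word GGAAGT. The 4 promoters below were chosen because they hold both chemokine genes and the genes with 2 GATA words each, and the capitals mark the matches, which on the opposite strand appear as the reverse complement of a word. The Ppbp window is chr5:90768268-90768517 and the Pf4 window chr5:90772185-90772434, both on the plus strand. The Gp1ba window is chr11:70638872-70639121 (plus) and the Gp5 window chr16:30310782-30311031 (minus). Each is written 5′ to 3′ toward the gene.
Ppbp: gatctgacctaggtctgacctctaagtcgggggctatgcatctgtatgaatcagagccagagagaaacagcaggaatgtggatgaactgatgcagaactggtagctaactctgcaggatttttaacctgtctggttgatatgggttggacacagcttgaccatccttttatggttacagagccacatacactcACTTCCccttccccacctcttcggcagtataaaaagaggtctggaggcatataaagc
Pf4: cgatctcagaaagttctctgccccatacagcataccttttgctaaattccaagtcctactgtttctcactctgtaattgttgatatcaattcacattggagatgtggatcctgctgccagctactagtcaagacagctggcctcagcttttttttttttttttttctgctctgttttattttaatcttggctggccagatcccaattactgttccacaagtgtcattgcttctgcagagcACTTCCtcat
Gp1ba: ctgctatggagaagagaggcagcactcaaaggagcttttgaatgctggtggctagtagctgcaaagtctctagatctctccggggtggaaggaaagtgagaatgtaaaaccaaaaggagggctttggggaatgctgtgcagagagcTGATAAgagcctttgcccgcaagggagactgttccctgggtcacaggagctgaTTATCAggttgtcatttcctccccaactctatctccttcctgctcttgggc
Gp5: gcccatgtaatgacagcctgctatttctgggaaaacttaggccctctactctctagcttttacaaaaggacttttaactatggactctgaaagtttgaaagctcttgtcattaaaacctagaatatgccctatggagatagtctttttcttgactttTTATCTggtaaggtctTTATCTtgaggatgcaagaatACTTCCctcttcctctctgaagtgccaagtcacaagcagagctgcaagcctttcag
An AGATAA or TGATAA word stood in 3 of the 8 windows (Gp1ba, Gp5 and Clec1b), against 16.6% of the 32851 promoters of the same length. GGAAGT stood in 5 of 8 (Pf4, Ppbp, Itga2b, Gp9 and Gp5), against 19.7% of all promoters. The ETS word began 10 bases before the start in Pf4, 57 in Ppbp, 26 in Itga2b and 56 in Gp5, and 240 bases before it in Gp9. The matched words did not overlap one another. A match is a description of letters and does not show a binding site.

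The libraries held between 9362264 and 19734849 expected counts each. Levels are given as CPM, the count of a gene scaled by its library's total. A count of 0 allows up to 3 counts, or 0.152 to 0.32 CPM depending on the library. Bulk organs carried their defining markers, with summed levels of 84770 to 109000 CPM for 7 hepatocyte genes in liver, 54770 to 74630 for 6 lung epithelial genes in lung, 10550 to 19640 for 7 mammary epithelial genes in tumor and 9238 to 11960 for 11 erythroid genes in marrow. The T and B lymphocyte genes summed to 783 to 2203 CPM in lymph node. The same hepatocyte genes also summed to 251 to 266 CPM in PBS tumors, 497 to 579 in PBS spleens and 2.16 to 357 in bulk BP marrows. The lung epithelial genes summed to 67.7 to 162 CPM in PBS tumors, 32.8 to 123 in PBS livers and 8.71 to 108 in PBS spleens. The source of these counts was not tested, nor was its part in the low values of members in liver, lymph node and tumor. In the sorted liver libraries 48.2 to 57.1% of counts were mitochondrial, where bulk liver of BP mice had 5.67 to 7.06%. Groups held 3 libraries from 3 mice. The tests named below are edgeR quasi-likelihood tests, and a gene was called when its p, adjusted over all genes tested, was under 0.05.

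**Figure D1:**
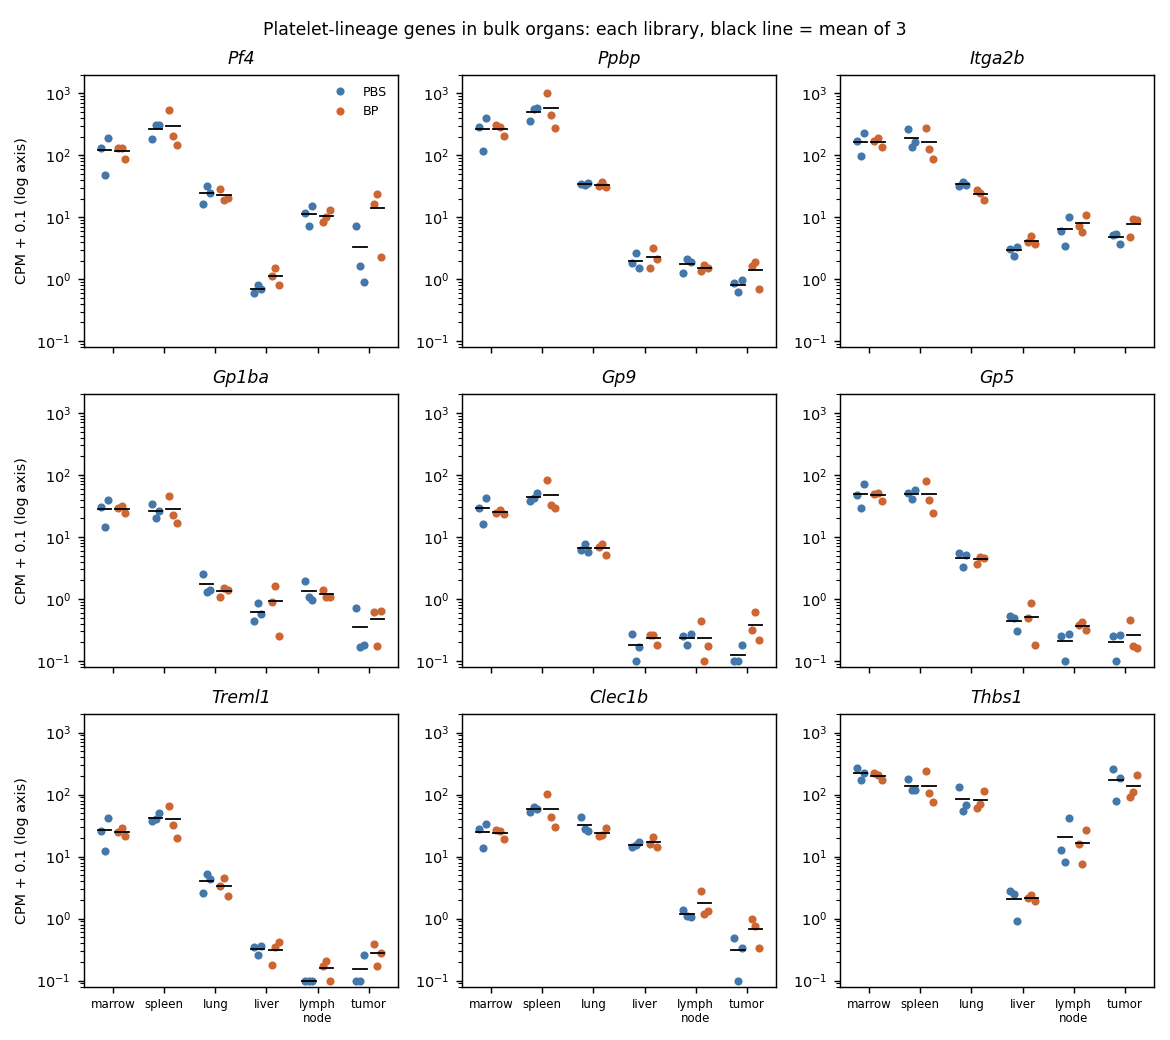
CPM + 0.1 on a log axis for the 9 genes in the bulk libraries of 6 organs, with PBS mice in blue, BP mice in orange and the mean of 3 as a black line. Marrow and spleen lie above the other organs for every gene except Clec1b, where lung lies between them and liver close by, and Thbs1, where tumor lies among the high organs, and the PBS and BP points overlap in nearly all groups.

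In PBS mice, spleen and marrow held the highest levels of 7 of the 9 transcripts, lung followed at a distance, and liver, lymph node and tumor held little. Ppbp stood at 356, 549 and 569 CPM in the 3 PBS spleens and at 280.5, 114.6 and 397 CPM in the marrows. In PBS lungs it stood at 34.1, 33.2 and 35.9 CPM, and it was 1.88 ± 0.589 CPM (SD, n = 3) in liver, 1.67 ± 0.473 in lymph node and 0.720 ± 0.172 in tumor. Every lung was thus below every marrow and spleen and above every remaining organ, while marrow and spleen overlapped, as did liver and lymph node. Pf4 read 184, 305 and 312 CPM in spleen, 131.7, 47.5 and 187 in marrow and 16.3, 32.1 and 24.01 in lung. It then parted from Ppbp, with 11.2 ± 3.88 CPM in lymph node, 3.18 ± 3.52 in tumor and 0.6001 ± 0.0924 in liver, where lymph node and tumor overlapped. The second PBS mouse had the lowest marrow value of the 3 for each of the 9 genes.

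Itga2b stood at 186 ± 66.7 CPM in PBS spleen and 165 ± 63.1 in marrow, which overlapped, then at 33.6 ± 2.62 in lung, 6.44 ± 3.39 in lymph node, 4.61 ± 0.921 in tumor and 2.82 ± 0.465 in liver. The von Willebrand receptor subunits had the same leading organs. Gp1ba was 27.7 ± 12.5 CPM in marrow and 26.4 ± 6.93 in spleen, and only 1.61 ± 0.670 in lung, which overlapped with lymph node (1.22 ± 0.518). Gp5 was 49.7 ± 21.3 in marrow, 49.6 ± 7.63 in spleen and 4.52 ± 1.15 in lung. Gp9 was 43.55 ± 6.83 in spleen, 28.9 ± 12.8 in marrow and 6.40 ± 1.13 in lung. In liver and tumor none of these 3 subunits exceeded 0.769 CPM in a PBS mouse, and Gp9 held 0 counts in 2 of 3 PBS tumors.

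Treml1 was again led by spleen and marrow. It stood at 38.0, 39.9 and 49.5 CPM in PBS spleens, at 25.9, 12.4 and 42.3 in marrows and at 2.48, 5.06 and 4.21 in lungs. All 3 PBS lymph nodes and 2 of 3 PBS tumors held 0 counts, which allows up to 0.32 CPM at the lowest depth of the series. Clec1b had another order. Its spleen level of 58.3 ± 5.74 CPM exceeded lung (32.2 ± 9.87), marrow (24.9 ± 10.4) and liver (15.45 ± 1.62), and the values of lung overlapped with those of marrow and those of marrow with those of liver. Lymph node (1.08 ± 0.188) and tumor (0.206 ± 0.192) held little Clec1b. Reads from the stretch that Clec1b shares with Clec9a are of uncertain assignment in every organ. Thbs1 was high in marrow (222 ± 52.0 CPM), tumor (173 ± 91.6), spleen (139 ± 36.6) and lung (83.8 ± 41.4), each overlapping with the next. Lymph node (20.6 ± 17.9) and liver (1.96 ± 1.02) lay below them, so that the tumor, an organ with little of the other 8 transcripts, was among the richest in Thbs1. The highest PBS lung, at 131 CPM of Thbs1 against 53.4 and 67.0, came from the first PBS mouse. The immediate early and heat shock genes, 13 genes that cells switch on within minutes of stress, summed to 955 to 3020 CPM in the PBS lungs, 740 to 1113 in tumors, 319.2 to 522.4 in spleens, 291.8 to 571.4 in lymph nodes, 255 to 308.5 in marrows and 154 to 186 in livers. Liver was lowest both in Thbs1 and in this sum, and marrow, with the highest mean of Thbs1, lay below lung in the sum. The part of these 13 genes in the Thbs1 levels was not tested.

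Per kilobase of exon, the chemokines were far above the receptors in PBS spleen. The length used is that of all annotated exons of a gene merged, not of the transcripts present, so that the order depends on it. Ppbp stood at 453.5 ± 108.9 CPM per kilobase and Pf4 at 370.4 ± 99.9. Gp9 followed at 49.4 ± 7.75, Itga2b at 34.15 ± 12.2 and Treml1 at 30.3 ± 4.39. Thbs1 (22.9 ± 6.02), Gp5 (22.6 ± 3.48), Clec1b (11.4 ± 1.13) and Gp1ba (9.72 ± 2.55) were lowest. Among the subunits of 1 receptor, Gp9 transcripts by this measure stood above those of Gp5, and Gp5 above Gp1ba, with no overlap between their values in spleen.

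The neighbours in the organ order were tested in 1 fit of the 18 PBS bulk libraries, which holds 6 organs of each mouse. Between marrow and spleen no member was called, by the edgeR test with Benjamini-Hochberg adjustment, while 14.8% of 17696 genes were called higher and 17% lower in marrow. At an unadjusted p under 0.05 the count was 1 (Clec1b), and DESeq2 called the same gene. Clec1b was 0.98 ± 0.364 (SE) log2 units lower in marrow, with an adjusted p of 0.0503. With the mouse as a block its adjusted p was 0.044. In the main fit Pf4 (-0.90 ± 0.557), Ppbp (-0.66 ± 0.388), Treml1 (-0.41 ± 0.452) and Gp9 (-0.34 ± 0.375) were also lower in marrow by estimate. Thbs1 (0.97 ± 0.506), Gp1ba (0.36 ± 0.446), Gp5 (0.27 ± 0.358) and Itga2b (0.13 ± 0.291) were higher by estimate. With errors of this size moderate differences were not detectable. Of 13 other platelet receptor genes none was called, and Itgb3, the partner chain of Itga2b in the fibrinogen receptor, was at 161 ± 49.1 scaled CPM in marrow and 141 ± 5.12 in spleen. Transcription factors of the lineage, which red cell precursors share, were higher in marrow for 5 of 10 and lower for 1. Among them Zfpm1 was at 311 ± 42.2 scaled CPM in marrow and 73.5 ± 33.6 in spleen, and Mef2c was the factor that was lower (-1.83 ± 0.368). Erythroid genes were higher in marrow for 9 of 11 and lower for 0, and their part in the transcription factor values was not tested. The median over the members was a log2 difference of -0.34, against -0.10 over all genes.

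Between spleen and lung, 7 of 9 members were higher in spleen, against 23.6% of all genes called higher and 27.6% lower. The log2 differences were 3.86 ± 0.435 for Ppbp, 3.48 ± 0.612 for Pf4, 2.41 ± 0.307 for Itga2b, 3.98 ± 0.519 for Gp1ba, 2.77 ± 0.405 for Gp9, 3.45 ± 0.401 for Gp5 and 3.44 ± 0.506 for Treml1. Adjusted p-values (edgeR) ran from 2.46e-06 for Ppbp to 0.000183 for Pf4. Clec1b (0.87 ± 0.363, adjusted p = 0.054) and Thbs1 (0.72 ± 0.504, adjusted p = 0.249) did not pass. Of the 13 other receptor genes of platelets, 11 were higher in spleen and 0 lower. Gp6, the collagen receptor, was at 28.3 ± 1.32 scaled CPM in spleen and 2.33 ± 0.286 in lung (log2 difference 3.59 ± 0.421), and F2rl3, a thrombin receptor, at 11.5 ± 3.80 and 0.618 ± 0.219. Transcription factors were higher in spleen for 8 of 10 and lower for 1, with Gata1 at 49.99 ± 21.8 against 0.991 ± 0.328 scaled CPM. Erythroid genes were higher in spleen for 11 of 11 (2039 to 4978 CPM summed, against 128.7 to 459.6 in lung), and their part in the transcription factor values was not tested. Cytoskeleton, signaling and dense granule genes were higher for 10 of 18 and lower for 4. Alpha granule genes were split, with 4 higher and 4 lower of 12. Vwf and Pdgfb, which endothelium also makes, were among those lower in spleen, Vwf at 78.2 ± 10.2 against 416 ± 180 scaled CPM. Markers of endothelium were lower in spleen for 8 of 10 genes and higher for 2. Their part in the alpha granule values was not tested. Pdpn, the ligand of Clec1b, was at 1.65 ± 1.99 scaled CPM in spleen and 165 ± 47.7 in lung.

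Between lung and liver, 7 of 9 members were higher in lung, against 34.7% of all genes higher and 25.4% lower. Thbs1 (4.29 ± 0.607), Pf4 (4.24 ± 0.738), Ppbp (3.10 ± 0.453) and Itga2b (2.48 ± 0.327) were higher in lung by these log2 amounts. Gp9 (5.22 ± 0.634), Gp5 (2.65 ± 0.498) and Treml1 (3.00 ± 0.647) were so too, but no PBS liver exceeded 0.423 CPM of any of them, so that their fitted sizes depend on the prior count. The edgeR adjusted p was at most 0.00105 among the 7. Gp1ba (0.52 ± 0.566, adjusted p = 0.439) and Clec1b (-0.05 ± 0.364, adjusted p = 0.914) were not called. The median of all genes was 0.30 in this contrast, and that of the members 3.00. Of the receptor genes 10 of 13 were higher and 1 lower in lung (P2ry1, named after its value was seen), with Itgb3 at 28.2 ± 3.27 against 3.45 ± 1.56 scaled CPM. Alpha granule genes were higher for 10 of 12 and lower for 2, and cytoskeleton, signaling and dense granule genes higher for 15 of 18. Endothelial genes were higher in lung for 8 of 10 and lower for 2, and immediate early and heat shock genes were higher for 11 of 13 and lower for 0. The part of either in the alpha granule and Thbs1 differences was not tested. Fibrinogen chains, ligands of the integrin made in hepatocytes, ran the other way: Fga was at 16.7 ± 5.58 scaled CPM in lung and 7178 ± 1755 in liver. In bulk tissue, fewer cells or platelets of a type and less RNA in each cannot be told apart.

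**Figure D2:**
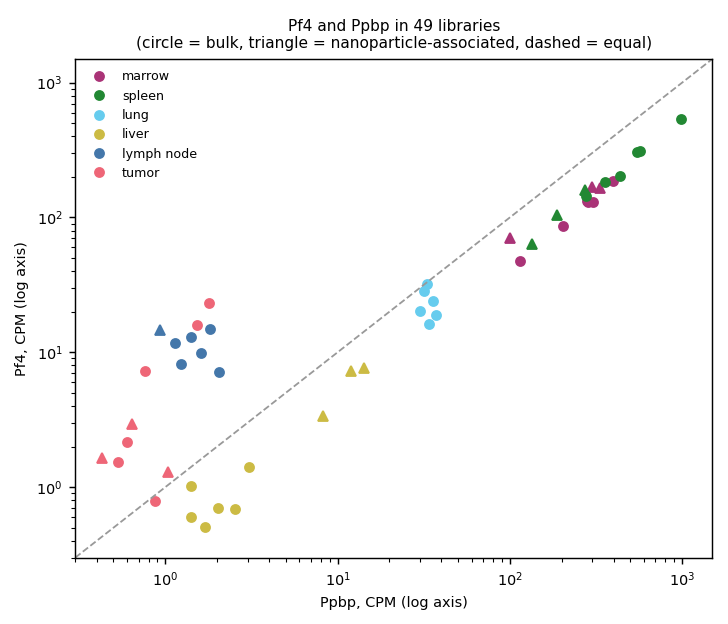
Pf4 against Ppbp in each of the 49 libraries, both in CPM on log axes, with the organ as colour, bulk libraries as circles, nanoparticle-associated cells as triangles and a dashed line where both are equal. Libraries of marrow, spleen, lung and liver lie below the line, and those of lymph node and all tumors but 1 lie above it.

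The ratio of the neighbouring chemokine genes differed between organs, which are put into 2 sets here after the values were seen. In the 33 libraries of marrow, spleen, lung and liver there were 0.273 to 0.968 Pf4 counts per Ppbp count, with a median of 0.514. In the 16 libraries of tumor and lymph node the ratio was 0.909 to 15.6, with a median of 6.41. These ratios rest on 7 to 25 Ppbp counts in a library, and those of bulk livers on 6 to 17 Pf4 counts, so that single values are imprecise. Bulk lymph nodes ran from 3.48 to 10.3, and the nanoparticle-associated lymph node library had the highest ratio of the series, from 140 Pf4 and 9 Ppbp counts. Tumors ran from 3.6 to 12.96 in bulk of BP mice, from 0.909 to 9.50 in bulk of PBS mice and from 1.25 to 4.56 in sorted cells, so that the lowest PBS tumor overlapped with the first set. Macrophage marker genes, summed over 10 genes, stood at 1769 to 4296 CPM in bulk BP lymph nodes and 967 to 1233 in bulk BP tumors. In bulk BP spleens they stood at 3109 to 4641 CPM. In PBS mice the sums were 978 to 1926 in lymph nodes, 318 to 1534 in tumors and 1813 to 2994 in spleens. The bulk spleen ratio was 0.465 to 0.543 in BP and 0.518 to 0.555 in PBS mice. Ppbp itself was at 278.5 to 989 CPM in the BP spleens and 356 to 569 in the PBS spleens. The part of other cell types in the ratio was not tested.

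Across the 49 libraries, 7 of the members ran closely together. The Pearson r of log2(CPM + 0.5) was 0.889 to 0.990 for every pair among Pf4, Ppbp, Itga2b, Gp1ba, Gp9, Gp5 and Treml1, the highest being Ppbp with Gp9. Clec1b correlated with these at 0.523 to 0.763 and Thbs1 at 0.463 to 0.685. Clec1b and Thbs1 had an r of -0.07 with each other. These values describe libraries that share mice and organs and are not independent.

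Among 13855 genes, which leave out the 9 members themselves, those most like each member were mostly other genes of the lineage. Outside the members, Gp6 was nearest to Ppbp (r = 0.982), Itga2b (0.956), Gp9 (0.983), Gp5 (0.986) and Treml1 (0.991). Tubb1, the platelet beta tubulin, was the next outside the members for Ppbp (0.981) and Gp5 (0.983), Gp1bb for Gp9 (0.982) and Kcnj5 for Treml1 (0.985). Gp1ba was close to Ly6g6f (0.956). By the same measure Pf4 was nearest to Rgs18 (0.949) and Mmrn1 (0.932). Clec1b was nearest to Cd300e (0.882) and Emilin1 (0.878), and Thbs1 to Pdlim7 (0.925) and Smox (0.918).

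No difference between BP and PBS mice in these genes passed the test. No member was called in any of the 6 bulk organs, by edgeR or by DESeq2, and none had an unadjusted p under 0.05. Members tested numbered 9 in marrow, spleen and lung, 6 in lymph node and 4 each in liver and tumor. The background was as low, with 0% of genes called higher or lower in marrow, spleen, lung, lymph node and tumor and 0.0235% higher and 0% lower in liver. Over all genes DESeq2 called 4 in marrow, 37 in liver, 11 in lymph node and 138 in tumor. Standard errors of the members' log2 differences ran from 0.146 for Clec1b in liver to 1.10 for Pf4 in tumor, so that moderate differences were not detectable with 3 mice an arm.

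In spleen, Ppbp was at 989, 437 and 278.5 CPM in BP mice against 356, 549 and 569 in PBS mice. The first BP mouse had the highest and the third the lowest spleen value of all 6, and this held for Pf4 too, with 537, 203 and 143.5 CPM. The log2 difference of BP against PBS was 0.14 ± 0.469 for Ppbp and 0.07 ± 0.493 for Pf4. In marrow Pf4 stood at 130.4, 130 and 86.8 CPM in BP mice, inside the PBS range. In lung Itga2b was at 27.7, 24.7 and 19.2 CPM in BP mice, all below the PBS values of 31.4, 36.5 and 33.0, whereas the scaled values overlapped (-0.46 ± 0.221, adjusted p = 1). The median log2 difference over the members was -0.06 in marrow, 0.00 in spleen and -0.09 in lung, against 0.00, 0.01 and -0.01 over all genes.

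The tumor held the widest gap. Pf4 was at 16.0, 23.3 and 2.16 CPM in the BP tumors and at 7.22, 1.53 and 0.790 in the PBS tumors, so that the third BP tumor lay inside the PBS range. The log2 difference was 2.32 ± 1.10, with an edgeR adjusted p of 0.797. Mitochondrial transcripts took 19.45% of counts in the first BP tumor, and without that library the difference was 2.05. Without the first PBS tumor it was 3.72, again without a call (adjusted p = 0.451). Macrophage genes summed to 967 to 1233 CPM in the BP tumors and 318 to 1534 in the PBS tumors. Of these, 10 of 10 lay above 0 (median log2 difference 0.435), against 45.9% of all genes, and none was called. Kupffer cell genes lay above 0 for 5 of 5 tested (median 1.52), again without a call. Endothelial genes summed to 69.42 to 236.6 CPM in BP and 19.81 to 68.14 in PBS tumors, without overlap, and 8 of 8 tested lay above 0 (median log2 difference 2.12), none of them called. Fibroblast and matrix genes also lay above 0 for 8 of 8 (median 1.02), with sums of 582.2 to 2788 against 118.4 to 2627 CPM, and none was called. So did T and B lymphocyte genes for 6 of 6 tested (median 0.837), erythroid genes for 6 of 7 (0.984) and lung epithelial genes for 5 of 6 (1.78). Mammary epithelial genes lay above 0 for only 1 of 7 (median -0.381) and hematopoietic progenitor genes for 2 of 5 (-0.237). None of these was called. Neutrophil genes summed to 24440 CPM in 1 PBS tumor and to 28.38 and 306.2 in the other 2. The part of these cell types in the Pf4 values was not tested. In 1 fit of 48 libraries, in which the spread is shared over organs, Pf4 was called (2.29, adjusted p = 0.023), with 1144 genes higher and 338 lower in the same fit. Itga2b was at 4.65, 9.36 and 8.94 CPM in BP tumors and 5.02, 5.25 and 3.55 in PBS tumors, values that overlapped as library shares but did not overlap after scaling (0.79 ± 0.396, adjusted p = 0.797). In liver Itga2b was 3.92, 4.8 and 3.59 CPM with BP and 2.96, 2.31 and 3.21 with PBS, again without overlap and without a call (0.47 ± 0.232, adjusted p = 0.999). Over all genes, groups did not overlap with BP higher in 3.05% in marrow, 2.31% in spleen, 1.85% in lung, 4.64% in liver, 3.75% in lymph node and 5.66% in tumor. With BP lower the shares were 2.87%, 2.17%, 2.57%, 3.72%, 3.06% and 5.15% in that order. Among members tested and on the scaled values, no other group pair in any organ was free of overlap. Pf4 in liver, under the count minimum, was at 1.02, 1.41 and 0.703 CPM with BP and 0.507, 0.692 and 0.601 with PBS. In lymph node the 6 tested members had a median of -0.29, against -0.01 over all genes, and Thbs1 ranged from 7.37 to 26.7 CPM with BP and 8 to 41.0 with PBS. Mitochondrial transcripts took 28.62% of counts in the second PBS lymph node and 5.795 to 11.55% in the other bulk nodes, and without that library again no member was called by edgeR.

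**Figure D3:**
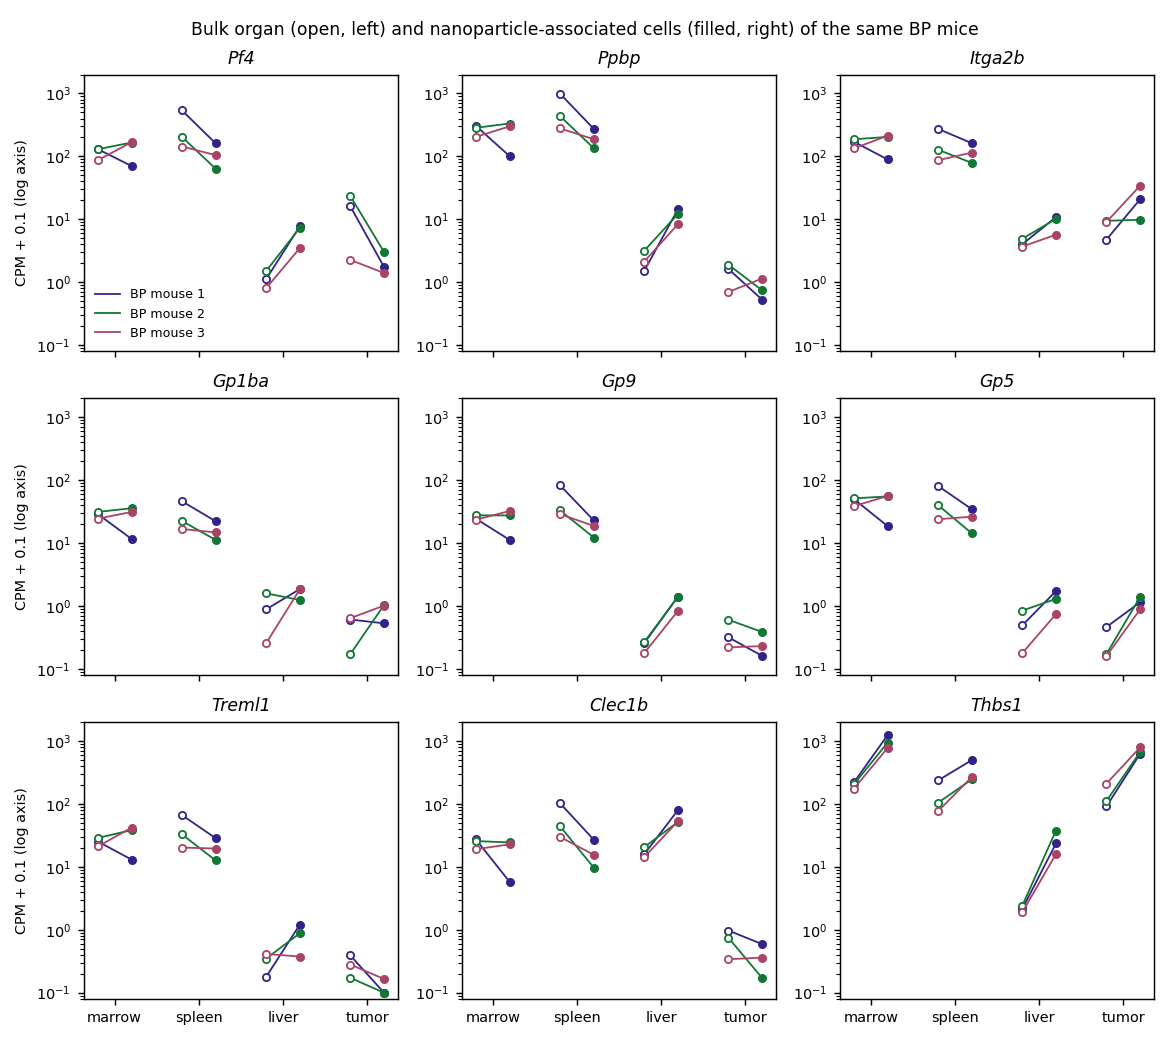
CPM + 0.1 on a log axis in bulk organ (open circles) and nanoparticle-associated cells (filled circles) of the same 3 BP mice, joined by mouse, for 4 organs. Thbs1 rises in every mouse and organ, the other genes rise in liver in nearly every mouse, and most fall in spleen.

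Nanoparticle-associated cells were compared with bulk tissue of the same organ and the same BP mice, in main fits without a mouse block. Thbs1 was higher in the magnet-held cells of all 4 organs. In marrow it stood at 1243, 943 and 778 CPM in the sorted cells against 220.2, 205.6 and 175 in bulk. In spleen it stood at 497, 245 and 266 against 236, 104.5 and 76.7, with the lowest sorted value just above the highest bulk one. In liver it stood at 23.4, 37.4 and 15.8 against 2.04, 2.32 and 1.80. In tumor it stood at 624, 667 and 789 against 91.1, 111.0 and 209.9. No organ had an overlap between the fractions. Over all genes, the groups did not overlap with sorted cells higher in 15.8% in marrow, 25.3% in spleen, 38.6% in liver and 20.5% in tumor, and with them lower in 14.8%, 30.2%, 39.8% and 18.2%.

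The log2 differences of Thbs1 were 2.29 ± 0.156 in marrow (edgeR adjusted p = 0.000181), 1.44 ± 0.432 in spleen (0.0342), 4.57 ± 0.451 in liver (1.68e-05) and 2.41 ± 0.283 in tumor (0.0118). The call in spleen was lost with library totals in place of TMM (1.27, adjusted p = 0.0658) and, one at a time, without sorted library 1 (1.15, 0.068) or 3 (1.58, 0.063) or bulk library 2 (1.32, 0.106) or 3 (1.13, 0.0802). The call in tumor was lost without sorted library 1 (2.49, 0.0752) or 2 (2.40, 0.0647). In both organs the direction held in every fit that was run. The immediate early and heat shock genes moved with Thbs1: 13 of 13 were higher in sorted cells of marrow, spleen and liver and 12 of 13 in tumor. Their summed level was 1685 to 1939 CPM against 248 to 300.2 in marrow, 4712 to 13100 against 309 to 416 in spleen, 5839 to 9926 against 132 to 216 in liver and 7812 to 11200 against 444 to 1003 in tumor. All 13 were detected in each of these libraries. Their part in the Thbs1 difference was not tested.

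**Figure D4:**
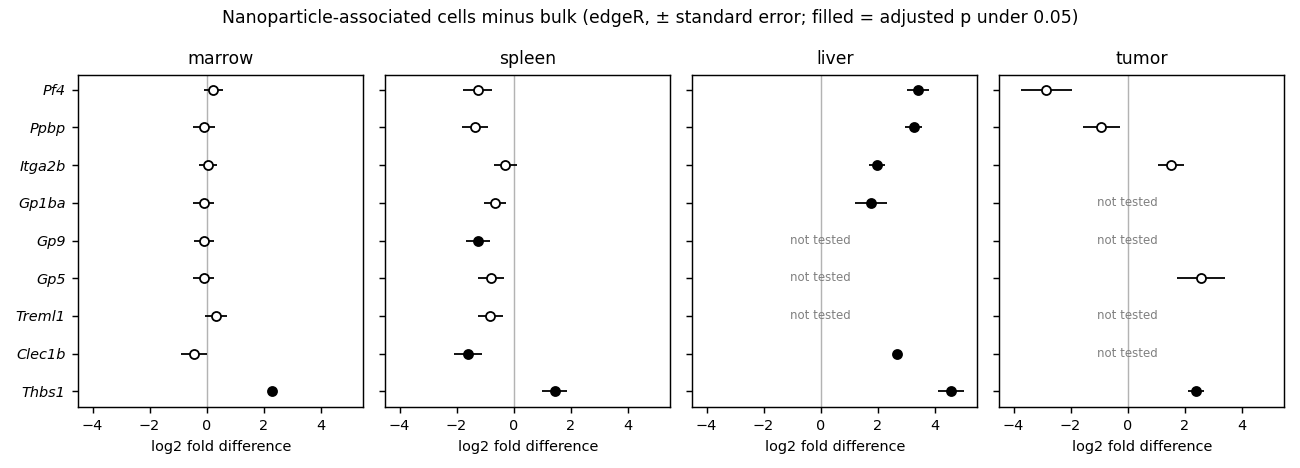
The log2 difference between nanoparticle-associated cells and bulk tissue for the 9 genes in 4 organs, with bars of 1 standard error, filled where the edgeR adjusted p was under 0.05 and open otherwise. Liver is the organ where every tested gene lies to the right of 0, spleen the organ where all but Thbs1 lie to the left, and in marrow all but Thbs1 lie near 0.

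In marrow, Thbs1 was the only member called, and the other 8 did not pass the test. The members called over all 9 were 1 higher and 0 lower, against 4.8% of 13573 genes higher and 2.9% lower. Pf4 was at 70.2, 165.9 and 168 CPM in sorted cells and 130.4, 130 and 86.8 in bulk. Ppbp was at 100.8, 333 and 300 against 305, 285 and 204. The first sorted marrow library had the lowest sorted value of each of the 8, Clec1b at 5.69 CPM against 24.3 and 22.7 in the other 2, and the highest Thbs1. Without that library, Pf4 and Treml1 were also called higher. Log2 differences of the 8 ran from -0.43 ± 0.455 for Clec1b to 0.32 ± 0.387 for Treml1. Of the other lineage genes, 0 of 13 receptor genes, 0 of 12 alpha granule genes and 0 of 10 megakaryocyte transcription factors were called, and 1 of 18 cytoskeleton, signaling and dense granule genes, Plek, was higher (450.2 ± 37.5 against 309 ± 37.7 scaled CPM). Itgb3 was at 152 ± 49.4 scaled CPM in sorted cells and 155 ± 27.4 in bulk. Cxcr3, a receptor for Pf4, was lower (1.71 ± 0.326 against 6.19 ± 0.277 scaled CPM).

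In spleen, Gp9 and Clec1b were lower in the sorted cells and Thbs1 higher, against 22% of 15026 genes lower and 20.2% higher. Gp9 stood at 22.8, 12.2 and 18.6 CPM in sorted cells and 82.7, 33.0 and 28.7 in bulk, without overlap (log2 difference -1.25 ± 0.407, edgeR adjusted p = 0.0455). Clec1b stood at 26.9, 9.62 and 15.4 against 102.2, 44.0 and 29.8 (-1.59 ± 0.50, adjusted p = 0.0399). Ppbp missed the threshold at 275, 134.9 and 187 against 989, 437 and 278.5 CPM (-1.34 ± 0.453, adjusted p = 0.0505), and Pf4 at -1.26 ± 0.506 (adjusted p = 0.0855). With the mouse as a block both were called lower, Ppbp at -1.20 (adjusted p = 0.0075) and Pf4 at -1.12 (adjusted p = 0.0109), which made 5 calls in place of 3. Itga2b (-0.29 ± 0.413), Gp1ba (-0.65 ± 0.387), Gp5 (-0.79 ± 0.458) and Treml1 (-0.82 ± 0.442) were not called.

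The bulk spleen of the first BP mouse was the highest of its group for all 9 genes. Without it the log2 difference was -0.69 for Gp9 (adjusted p = 0.0769), -1.01 for Clec1b (0.0935), -0.76 for Ppbp (0.107) and -0.58 for Pf4 (0.236), and no member was called lower. The sorted spleen of that mouse, also the highest of its group for these genes, stayed in this fit, which had no mouse block. Leaving out only the bulk library thus moves the differences toward 0, and the fit does not show what the remaining pairs would give. The calls of Gp9 and Clec1b were also lost without sorted library 2 or 3 or bulk library 2, and that of Gp9 without sorted library 1. The median over the members was -0.82, against -0.04 over all genes. With library totals in place of TMM the median over all genes was -0.21 and the calls over all genes shifted from 3036 higher and 3304 lower to 2064 and 3775. Of the other lineage genes, 3 of 13 receptor genes were lower and 0 higher: Cd226 (-2.02 ± 0.320), P2ry12 and Tbxa2r. Transcription factors of the lineage were split, with Runx1 higher (77.7 ± 2.89 against 40.2 ± 3.88 scaled CPM) and 3 of 10 lower, Fli1 and Meis1 among them. Alpha granule genes had 1 higher, Tgfb1, and 1 lower, Clu. Macrophage genes were lower for 5 of 10 and T and B lymphocyte genes for 4 of 7. The macrophage sum was 1151 to 2757 CPM in sorted cells and 3109 to 4641 in bulk, and the part of these cells in the members' differences was not tested. None of 11 erythroid genes was called, while their sum ran from 1553 to 12150 CPM between the sorted spleen libraries.

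In liver, every member that could be tested was higher in the sorted cells. These were 6 of 9, and all 6 were called, against 37.3% of 13247 genes called higher and 37.5% lower. Clec1b rose from 15.7, 20.4 and 14.1 CPM in bulk to 79.3, 51.5 and 52.9 (log2 difference 2.696 ± 0.148, edgeR adjusted p = 5.08e-07). Pf4 rose from 1.02, 1.41 and 0.703 CPM to 7.67, 7.23 and 3.39 (3.42 ± 0.395, adjusted p = 4.69e-05). Ppbp rose from 1.41, 3.06 and 2.03 CPM to 14.3, 12.0 and 8.25 (3.26 ± 0.302, adjusted p = 1.09e-05). Itga2b rose from 3.92, 4.8 and 3.59 CPM to 10.7, 10.04 and 5.59 (1.97 ± 0.279, adjusted p = 0.000173). Gp1ba rose from 0.783, 1.49 and 0.156 CPM to 1.75, 1.15 and 1.74 (1.76 ± 0.557, adjusted p = 0.0173). The CPM of Gp1ba overlapped between the fractions, whereas the scaled values did not, and its call was lost with library totals in place of TMM (0.92, adjusted p = 0.0918) and without sorted library 3 (1.62, adjusted p = 0.0559) or bulk library 1 (1.72, adjusted p = 0.0567).

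Gp9, Gp5 and Treml1 fell below the count minimum in liver. Gp9 read 1.3, 1.301 and 0.733 CPM in sorted cells and 0.157, 0.166 and 0.0781 in bulk, and Treml1 1.11, 0.780 and 0.275 against 0.0783, 0.248 and 0.312. Without the filter on low counts all 3 were called higher. Because the members tested passed the filter in part through the sorted libraries, their count does not describe all 9. Levels in sorted liver cells stayed far under those of spleen for all members but Clec1b, whose 51.5 to 79.3 CPM fell within the range of the bulk spleens (29.8 to 102.2).

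The scaling matters more here than in the other organs. Library totals in place of TMM moved the median of all genes from 0.01 to -0.80 and the calls from 4939 higher and 4968 lower to 2681 and 6887, and 5 of the 6 members remained called. Hepatocyte genes were lower in sorted cells for 7 of 7. All 10 endothelial genes were higher, from summed levels of 246 to 343 CPM in bulk to 1908 to 3933, and so were 7 of 7 T and B lymphocyte genes and 7 of 7 neutrophil genes tested. Of 6 Kupffer cell genes 1 was higher, of 10 macrophage and monocyte genes 8 were higher and 0 lower, and of 8 tested erythroid genes 6 were higher and 2 lower. The Kupffer cell genes summed to 272.3 to 1236 CPM (median 279.7) in sorted cells and 672.8 to 1108 (median 855.7) in bulk liver of BP mice. Of the lineage genes, 5 of 6 tested receptor genes were higher, led by Selp (43.0 ± 7.66 against 0.629 ± 0.307 scaled CPM), which endothelium also makes. Itgb3 was at 15.5 ± 1.20 against 2.01 ± 0.399 scaled CPM. Of alpha granule genes 9 of 11 were higher, with Vwf at 69.3 ± 10.7 against 2.33 ± 0.497, and 1 lower (F5, named after its value was seen). Transcription factors were higher for 6 of 8 and cytoskeleton, signaling and dense granule genes for 15 of 17. The part of these cell types in the members' differences was not tested.

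In tumor, Thbs1 was the only member called among 5 tested, against 5.87% of 14615 genes called higher and 3.17% lower. Pf4 was at 1.66, 2.94 and 1.304 CPM in sorted cells against 16.0, 23.3 and 2.16 in bulk (-2.85 ± 0.888, edgeR adjusted p = 0.0825). Without bulk library 3 the count of members called was 2. DESeq2 called Pf4 lower (adjusted p = 0.00524), as did the fit of 48 libraries (0.00137) and the fit without bulk library 3 (0.0237). Itga2b was at 20.7, 9.74 and 34.2 CPM against 4.65, 9.36 and 8.94 (1.54 ± 0.453, adjusted p = 0.0737) and Gp5 at 1.04, 1.29 and 0.783 against 0.364, 0.0720 and 0.06 (2.58 ± 0.832, adjusted p = 0.0898), both without overlap and without a call. The fit of 48 libraries called both higher, and DESeq2 called Itga2b. Gp5 held 5, 1 and 1 counts in these bulk libraries and 17, 18 and 12 in the sorted ones. It passed the count minimum through the sorted libraries. Its fitted size thus depends on the prior count, and its lack of overlap rests on few counts. Ppbp was at 0.430, 0.644 and 1.04 CPM in sorted cells against 1.53, 1.80 and 0.6 in bulk (-0.92 ± 0.641, adjusted p = 0.363). None of 5 tested receptor genes was called, Itgb3 being at 103.5 ± 24.3 and 92.9 ± 21.5 scaled CPM. Macrophage genes were lower in the sorted tumor cells for 8 of 10, with a sum of 296 to 352 CPM against 967 to 1233 in bulk, and C1qa, a complement gene of macrophages, was among them (51.0 ± 6.92 against 143 ± 28.0 scaled CPM). The part of macrophages in the Pf4 values was not tested. With library totals in place of TMM the calls over all genes shifted from 858 higher and 463 lower to 384 and 416.

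Whether an organ's difference departed from the mean of the other 3 was tested in 1 fit of 24 libraries as an interaction. In liver 7 of 9 members were higher than in the other organs, against 29.4% of all genes, and 0 lower, against 24.3%. The log2 gap was 4.61 ± 0.839 for Pf4, 3.94 ± 0.60 for Ppbp, 4.49 ± 0.783 for Gp9, 3.605 ± 0.604 for Clec1b and 3.504 ± 0.884 for Treml1, with edgeR adjusted p-values of at most 0.00235. Thbs1 (2.42 ± 0.465) and Itga2b (1.44 ± 0.512) were also called, whereas Gp1ba (1.59 ± 0.688) and Gp5 (1.70 ± 0.816) were not. In each bulk liver library of BP mice Gp9, Gp5 and Treml1 held 1 to 9 counts, and in the BP tumor libraries of both fractions Gp9 held 1 to 7 and Treml1 0 to 4. Gp9 and Treml1 passed the count minimum of this fit through marrow and spleen, so that the sizes of their gaps depend on the prior count and their calls rest on few counts in liver and tumor. The call of Itga2b was lost without sorted liver library 2 (1.12, adjusted p = 0.0996) or bulk liver library 1 (1.39, 0.0572) or 3 (1.38, 0.0591). The median over all genes was 0.22 in this contrast. In spleen 6 were lower, against 8.63% of all genes, and 0 higher, against 9.57%. These were Gp5 (-2.38 ± 0.607), Gp9 (-2.22 ± 0.583), Ppbp (-2.06 ± 0.549), Clec1b (-1.97 ± 0.606), Thbs1 (-1.60 ± 0.433) and Itga2b (-1.42 ± 0.482). The other 3 organs include liver, so that the spleen and liver gaps are not independent. In the fits of single organs Ppbp was at -1.34 in spleen, -0.09 in marrow, -0.92 in tumor and 3.26 in liver. Thbs1 was at 1.44 in spleen, 2.295 in marrow, 2.41 in tumor and 4.57 in liver. With the mouse as a block 5 of the 6 spleen gaps were called, all but that of Itga2b. Gp5 held 1 to 5 counts in the bulk tumor libraries of BP mice and was under the count minimum in liver, and Gp9 was under it in both organs, so that their spleen gaps are set against differences that rest on few counts. Clec1b was under the count minimum in tumor, with 8, 1 and 4 counts in sorted and 12, 9 and 4 in bulk libraries of BP mice. Its spleen and liver gaps are in part set against that difference. Without the bulk spleen of the first BP mouse the count of spleen calls was 1 (Gp5, with its few counts in tumor and liver), and without sorted spleen library 2 or 3 the count was 3. These fits had no mouse block, and each kept the other spleen fraction of the same mouse. In tumor Pf4 was lower (-3.65 ± 0.780, adjusted p = 0.00222), against 15.4% of genes lower and 8.43% higher. In marrow no member was called by edgeR, against 7.78% of genes higher and 7.22% lower, and 1 had an unadjusted p under 0.05 (Gp5, -1.46 ± 0.601).

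The single nanoparticle-associated lymph node library has no replicate and allows no test, and the bounds given cover counting error only. Thbs1 was at 105.3 CPM (95% exact Poisson interval 98.9 to 112), against 7.37 to 41.0 in the 6 bulk lymph nodes. Pf4 was at 14.6 CPM (12.2 to 17.2), within the bulk range of 7.10 to 14.8, as was Itga2b at 8.11 (6.41 to 10.1). Ppbp, at 0.936 CPM (0.428 to 1.78), lay below the lowest bulk node (1.13), and Gp1ba, at 2.50 (1.60 to 3.71), above the highest (1.82), both with intervals that reached into the bulk range. Gp5, with 5 counts at 0.520 CPM (0.169 to 1.21), also lay above the highest bulk node (0.320), with an interval that reached into the bulk range. Clec1b, at 1.46 CPM (0.796 to 2.44), was within the bulk range of 0.958 to 2.69. Gp9 and Treml1 held 1 count each. The sum of the immediate early and heat shock genes was 7723 CPM in this library, against 386 to 578 in the bulk nodes of BP mice, and its part in the Thbs1 value was not tested.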

How the data were processed

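RNA was sequenced from bulk organs and from magnetically sorted, nanoparticle-associated cells, 49 libraries in 17 groups, 16 of them with 3 libraries from 3 mice. The authors deposited 1 table of expected counts per gene, not scaled for depth; per the submitters' processing notes, which give tools without their roles, RSEM 1.3.1, a program that estimates such counts, was used. In it 4.64 to 7.92% of values were not whole. The same notes list STAR 2.7.9a, cutadapt 3.5, FastQC 0.11.9 and the build mm10. Their settings, the annotation and the strand of counting are not given in the sources used here. Of 55487 gene IDs, 55141 were given a symbol and 55227 a position from GENCODE M21 (GRCm38).

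Expected counts were rounded and tested with edgeR 4.0.16 in R 4.3.3 (quasi-likelihood F-test, two-sided, TMM scaling, genes kept by filterByExpr at a min.count of 10, p-values adjusted by Benjamini-Hochberg over all genes tested). Levels per library are CPM on library totals, and fold differences come from the TMM-scaled fit ("scaled CPM"), so that they are not quotients of the CPM. With library totals of 9362264 to 19734849, a floor of 3 counts was 0.152 to 0.32 CPM. Intervals are 95% exact Poisson and cover counting error only. The scripts were tested on simulated data. Replicates of a group differed by more than sampling noise (lowest chi-square per degree of freedom 8.43).

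Sorted and bulk libraries with 1 number came from the same mouse, as did the organs of a PBS mouse, per the sample descriptions, so that these libraries are paired by mouse. The main tests did not use this pairing, and a fit with the mouse as a block was run as an alternative. Same-numbered deviations correlated at -0.101 to 0.688 between sorted and bulk libraries and at -0.0573 to 0.534 between PBS organs. BP and PBS mice are different animals.

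Alternatives were DESeq2 1.42.0, DESeq2's size factors in edgeR, no filter, 1 fit of 48 libraries, a replicate block, removal of mitochondrial genes, the BP arm for organ contrasts, each library left out and, added after seeing the data, library totals in place of TMM. The members and the 18 gene lists were chosen with earlier results of these data known. All members are named. From each list the text names at most 3 genes per comparison, those with the smallest adjusted p, or up to 2 with the highest level where none was called. Promoters are RefSeq GRCm38.p6.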

Additional observations from a re-analysis of the deposited data

Results flagged for a closer look

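The difference between nanoparticle-associated cells and bulk tissue departed in 1 organ from the mean of the other 3, by a tested interaction (edgeR, 24 libraries), for 14 pairs of gene and organ. In liver the log2 gap was 4.61 for Pf4, 3.94 for Ppbp, 1.44 for Itga2b, 4.49 for Gp9, 3.5 for Treml1, 3.6 for Clec1b and 2.42 for Thbs1. In spleen it was -2.06 for Ppbp, -1.42 for Itga2b, -2.22 for Gp9, -2.38 for Gp5, -1.97 for Clec1b and -1.60 for Thbs1. In tumor it was -3.65 for Pf4. Gp9 and Treml1 held 1 to 4 counts in each bulk liver library of BP mice, and Gp5 1 to 5 in each bulk tumor library of BP mice, so that the sizes given for these 3 genes depend on the prior count and their calls rest in part on few counts. Clec1b held 8, 1 and 4 counts in the sorted and 12, 9 and 4 in the bulk tumor libraries of BP mice. Its liver and spleen gaps are in part set against that difference. Each organ is among the other 3 of the rest, so that the liver, spleen and tumor gaps are not independent. With the mouse as a block Itga2b was not called in spleen (-1.42, adjusted p = 0.056). Without the bulk spleen library of the first BP mouse, 1 of the 6 spleen calls was left (Gp5). The sorted spleen of that mouse stayed in the fit, which had no mouse block.

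In the nanoparticle-associated lymph node library, which no comparison uses, Thbs1 stood at 105.3 CPM, above the 7.37 to 41.0 CPM of the 6 bulk lymph nodes.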

How the results depend on the processing

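Of 189 counts of called members recomputed under the alternatives, 166 stayed within 1.5 times the reported count and 23 moved. The 166 include counts of 0 that stayed 0, as in BP against PBS, where the main fits called almost no gene. They thus say little on the stability of the other counts. With DESeq2 the count was 5 in sorted against bulk spleen, 3 in tumor and 1 between PBS marrow and spleen. In 1 fit of 48 libraries it was 1 for BP against PBS in tumor and 4 for sorted against bulk tumor. With no filter on low counts it was 1 between marrow and spleen. With the replicate block it was 5 in sorted spleen and 1 between marrow and spleen, and the block moved no other count by over 1.5 times. In BP against PBS, where the numbers join different mice (correlations -0.246 to 0.489, and not every library was closest to its own number), the block called 0 members in each of 6 organs.

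Leaving out 1 library at a time gave 0 to 0 members in each BP against PBS comparison, 1 to 3 in sorted against bulk marrow, 0 to 4 in spleen, 6 to 8 in liver and 0 to 2 in tumor. The counts were 0 to 1 for marrow against spleen, 7 to 8 for spleen against lung and 7 to 7 for lung against liver. The interactions gave 0 to 0 in marrow, 1 to 6 in spleen, 6 to 9 in liver and 1 to 2 in tumor. The count rose to 3 without sorted marrow library 1 and fell to 0 without sorted spleen library 3, bulk spleen library 2, or sorted tumor library 1 or 2. The cause was not tested. These fits had no mouse block, and where libraries were paired by mouse, the partner of the library left out stayed in.

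Of 409 alternative values of the 39 called gene differences, 374 stayed called and 35 did not. No direction reversed among them. In the BP arm, spleen against lung called 8 members, 7 of them shared, and lung against liver 7. With 3 mice a group and standard errors up to 1.10 on the log2 scale, depth and replicate number limit what could be seen, and genes under 10 counts were mostly untested.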
